A study of Bos taurus with 14 samples.

Results

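The microRNAs miR-10225a and miR-10225b (bta-miR-10225a and bta-miR-10225b in the files) are 2 of the 932 miRNA names, 723 bovine and 209 human, for which the deposited libraries hold reads. They were selected on measured values, because the first was higher in blood leucocytes and the second in plasma when cows were fed grain. Both diet contrasts were therefore used in the selection, and the sample type in which each was high was part of it, so the values below describe the pair without a test. The animals were adult, non-lactating Holstein cows with a ruminal cannula, fed forage alone and then a grain-rich ration that induces subacute ruminal acidosis. Each animal was bled while on forage only (forage diet, FD; 0% concentrate) and later during the first week on 65% concentrate (high-grain diet, HG). Plasma was sequenced from 4 cows (8 libraries), and leucocytes, taken as the buffy coat, from cows 1, 3 and 4 (6 libraries). All cows met FD before HG, so diet and time of sampling cannot be told apart, and no group was kept on FD throughout.

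MicroRNAs are short RNAs that are cut from hairpin precursors and guide Argonaute proteins to messenger RNAs, whose translation and stability they lower. Blood cells hold them inside the cell, and plasma carries them in vesicles and in protein complexes shed by blood cells and other tissues. Names with the same number and a different closing letter are given to closely related mature sequences, so reads of one can also match the other. No function is given here for miR-10225a or miR-10225b.

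Both miRNAs were placed on the plus strand of chromosome 26 in the UMD3.1 assembly, each over 21 bases. The position of miR-10225b was chr26:42785864-42785884 and that of miR-10225a was chr26:42790295-42790315. They lay 4.41 kb apart, and no other name of the files lay within 10 kb of either. The nearest further name, bta-miR-2396, was 303 kb from miR-10225b. In the RefSeq gene table of the assembly ARS-UCD2.0, 1 of the 2 was found (MIR10225B), inside the bounds of the protein-coding gene DMBT1. DMBT1 encodes a secreted scavenger receptor of mucosal surfaces that is built of repeated domains. The genes before it were PLEKHA1 and HTRA1, and whether the miRNA lies in an exon or an intron was not given by that table.

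Libraries differed in depth far more between sample types than between diets. Leucocyte libraries had 21764579 to 66070770 reads assigned to miRNA names, against 376589 to 4464702 in plasma. Where a name had no read, up to 3 counts remained possible, or 1.01 to 7.75 counts per 1e6 counts (CPM) in plasma. In leucocytes the same 3 counts stood for 0.0594 to 0.138 CPM. CPM here were scaled within each sample type by the trimmed mean of M-values (TMM), so a level in plasma and a level in leucocytes are on separately scaled tables. These floors, and the intervals given below, cover counting error only. The smallest read count listed was 2 in each library, so a name not listed may have had fewer reads rather than none. The floors take it as none and would otherwise be higher.

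Leucocytes had reads given to both names in 6 of 6 libraries, at low levels, with more of miR-10225a than of miR-10225b in each. In cow 4 on FD, all 12 reads given to miR-10225b also matched miR-10225a. The level of miR-10225a was higher on HG in 3 of 3 cows. That of miR-10225b was higher by more than 2-fold in cows 1 and 3 and nearly equal on both diets in cow 4. With means over all 6 libraries of 2.76 and 0.926 CPM, they held ranks 407 and 512 of the 782 names tested, whose median was 3.28 CPM.

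For miR-10225a, cows 1, 3 and 4 gave 127, 41 and 18 reads on FD and 297, 134 and 45 reads on HG. As levels these were 2.46, 0.889 and 0.551 CPM on FD and 7.0, 4.08 and 1.59 CPM on HG. Cow 1 was the highest and cow 4 the lowest on both diets, and the diets overlapped, since cow 4 on HG lay below cow 1 on FD. Within a cow, the level on HG was 2.85-fold, 4.58-fold and 2.88-fold that on FD. The fitted log2 fold change was 1.76 (SE 0.27, edgeR with cow as a term). Of the 782 names, 15 (1.92%) passed an edgeR adjusted p of 0.05 in this contrast, 3 of them (0.384%) with higher levels on HG. These 3 were miR-10225a itself and let-7b under its bovine and its human name, which had identical fitted values. Nothing is read from these counts about miR-10225a, since the contrast served to select it.

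For miR-10225b, the same cows gave 39, 29 and 12 reads on FD and 106, 43 and 10 reads on HG. Its levels were 0.713, 0.629 and 0.276 CPM on FD and 2.36, 1.29 and 0.296 CPM on HG. Here cow 4 had fewer reads on HG than on FD and a level within 1.07-fold of it, and the diets again overlapped. The log2 fold changes of the single cows were 1.73, 1.03 and 0.10, and the fitted value was 1.13 (SE 0.43). A level higher on HG in 3 of 3 cows was found for 155 names, or 19.8% of those tested, and both miRNAs are counted in it. For miR-10225b this rests on the division of shared reads and on rounding. Its estimated counts in cow 4 were 6 on FD and 7.5 on HG, the latter rounded upwards. With undivided read counts cow 4 went from 0.272 CPM on FD to 0.211 CPM on HG.

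**Figure D1:**
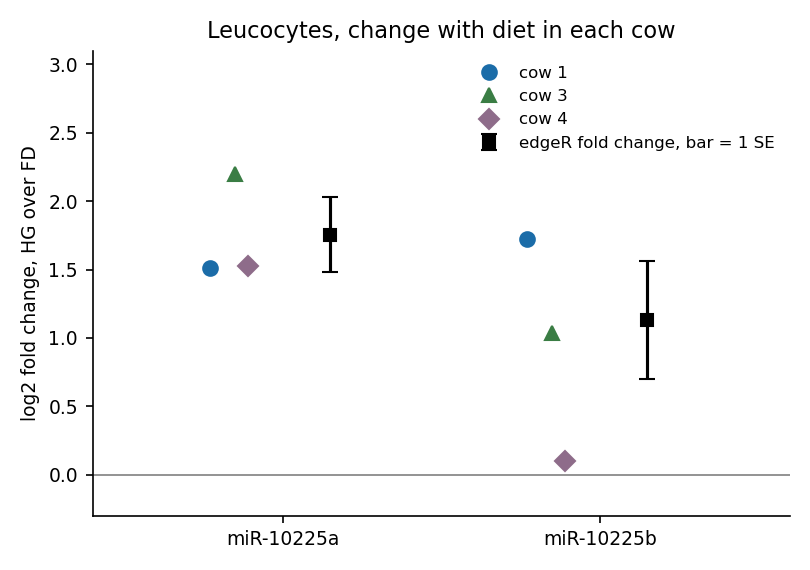
Change with diet of the 2 miRNAs in leucocytes, as log2 fold change of HG over FD on the y axis. Coloured symbols are the 3 cows and black squares the fitted edgeR value with 1 SE. The lowest cow was at 1.51 for miR-10225a and at 0.10 for miR-10225b, and all cows lay above 0. The value of 0.10 rests on a count rounded upwards.

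Buffy coats also hold red cells and platelets, and the leucocyte libraries carried erythroid miRNAs in quantity. The 4 erythroid markers (miR-451, miR-144, miR-486 and miR-363) made up 18.3% to 24.9% of estimated counts on FD and 21.7% to 35.0% on HG, with the share higher on HG in 2 of 3 cows. In cow 4 it went from 18.3% to 35.0%, while cow 1 had 24.9% and 25.4%. The sum covers markers that went opposite ways, with fitted log2 fold changes of -0.86 for miR-144, 0.42 for miR-486 and 0.32 for miR-451. The 7 leucocyte markers (among them miR-142, miR-150 and miR-223) had reads in every library. They made up 2.97% to 3.69% on FD and 2.42% to 3.44% on HG. These also went opposite ways, with -0.84 for miR-146a, -0.61 for miR-142-3p, 0.16 for miR-223 and 0.15 for miR-342 on the log2 scale. The part of these shares in the values of miR-10225a and miR-10225b was not tested. In such bulk samples, fewer cells of a type and less RNA per cell cannot be told apart.

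Reads that matched both names could be counted, because the authors deposited each name's reads both in full and divided among the names a read matches. Taking every division as one between the pair, the reads removed from miR-10225a and from miR-10225b were equal in all 9 libraries that held either. In leucocytes of cow 1, 7 reads on FD and 19 on HG were shared, and in cow 3, 0 and 3. Cow 4 shared 12 on FD, which were all reads given to miR-10225b there, and 5 of 10 on HG.

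The reads matching 1 of the names only therefore show the pair more clearly. In cows 1, 3 and 4, miR-10225a alone was matched by 120, 41 and 6 reads on FD and by 278, 131 and 40 on HG. The reads matching miR-10225b alone were 32, 29 and 0 on FD, then 87, 40 and 5 on HG. Of all such reads, miR-10225a took 78.9% (exact 95% binomial interval 71.6 to 85.1) in cow 1 on FD and 76.2% (71.5 to 80.4) on HG. In cow 3 it took 58.6% (46.2 to 70.2) and 76.6% (69.5 to 82.7), on FD and HG. That these intervals overlap does not show equal shares, and the difference was not tested. On such reads alone the fitted log2 fold changes were 1.93 (SE 0.28) for miR-10225a and 1.54 (SE 0.52) for miR-10225b, an alternative added after the data had been seen.

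**Figure D2:**
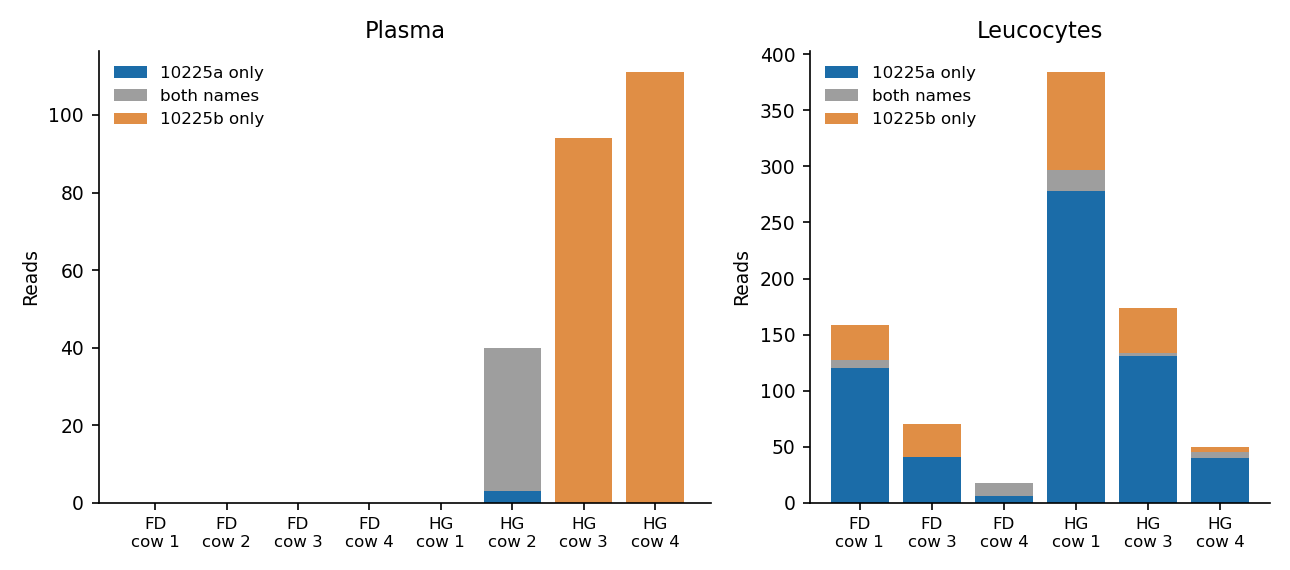
Reads of the 2 miRNAs in each library, split into reads that match miR-10225a only (blue), both names (grey) and miR-10225b only (orange). Leucocyte bars are mostly blue except in cow 4 on FD (12 of 18 reads grey), while plasma of cows 3 and 4 on HG is orange throughout (94 and 111 reads) and that of cow 2 mostly grey (37 of 40 reads).

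In plasma the balance of the pair follows in part from the selection, since miR-10225b was picked for plasma and miR-10225a for leucocytes. No read of either miRNA was found in any of the 4 FD libraries, as for 48 names, or 8.92% of the 538 tested. On HG, miR-10225b had reads in cows 2, 3 and 4 and miR-10225a in cow 2 alone. All reads given to miR-10225b in cow 2 also matched miR-10225a. The library with the most reads of all in plasma, cow 1 on HG, held neither.

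The reads of miR-10225b on HG were 0, 37, 94 and 111 in cows 1 to 4. As levels, cows 3 and 4 had 79.1 and 41.3 CPM, and the mean over the 4 cows was 35.0 ± 33.9 CPM (SD, n = 4). On FD the floors of 3 counts were 1.93 to 7.75 CPM, with a mean of 3.98 CPM. Against that mean, the HG mean was 8.80-fold higher, a lower bound only if the FD libraries had no read at all. This bound was 17.2 without cow 1, whose FD library had the highest floor, and 4.71 without cow 3, and it was 9.51 and 7.06 without cows 2 and 4. The groups overlapped at 0, where cow 1 lay on both diets. Names with no read on FD and reads in at least 3 HG libraries numbered 11, or 2.04% of those tested. These 11 names had 17 to 364 reads on HG, and miR-10225b had 242. Past an edgeR adjusted p of 0.05, 0 of the 538 names (0%) were found in plasma. At an unadjusted p under 0.05 there were 55, and DESeq2 made 12 calls.

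The reads of miR-10225a on HG were 0, 40, 0 and 0 in the same cows. Of the 40 reads in cow 2, 37 also matched miR-10225b and were all the reads miR-10225b had there, so 3 matched miR-10225a only. In cows 3 and 4, 0 of 94 and 0 of 111 reads were of miR-10225a, with exact 95% binomial limits of 3.85% and 3.27%. These limits take each read as a separate molecule. The reads in each of these libraries were of 1 sequence, so the share may be less well bounded. In leucocytes on HG, the share was 76.6% in cow 3 and 88.9% in cow 4. This difference between sample types follows in part from the selection and was not tested. With shared reads divided, the mean of miR-10225a on HG was 5.68 ± 11.4 CPM (SD, n = 4), all of it from cow 2 at 22.7 CPM. No fold against FD is given for it, since it rests on this library.

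Diet also moved with how much of a plasma library was assigned to miRNAs. The share of analysed reads assigned was 39.3% to 58.1% on FD and 59.3% to 72.0% on HG, without overlap. Its part in the reads of miR-10225b was not tested. The 3 liver markers (miR-122, miR-192 and miR-194) made up 1.01% to 9.04% of plasma counts on FD and 1.80% to 4.26% on HG. The 4 erythroid markers made up 6.04% to 11.9% and 4.04% to 11.3%, the 7 leucocyte markers 1.89% to 2.71% and 2.49% to 3.54%, and the 3 muscle markers at most 0.175%. These ranges overlapped between diets. Within cows, the liver share was lower on HG in cows 2, 3 and 4, with 8.58%, 9.04% and 6.22% on FD and 2.58%, 1.80% and 3.99% on HG, and higher in cow 1, with 1.01% and 4.26%. Leucocyte and muscle markers took a larger part on HG in 3 of 4 cows, and erythroid markers in 1 of 4. Single erythroid markers differed, with fitted log2 fold changes of -1.02 for miR-486, -0.38 for miR-451, -0.26 for miR-144 and 2.16 for miR-363. Liver markers ran from -1.56 for miR-122 to 0.08 for miR-194, and leucocyte markers from -0.94 for miR-146a to 0.23 for miR-155. The part of these shares in the values was not tested either.

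**Figure D3:**
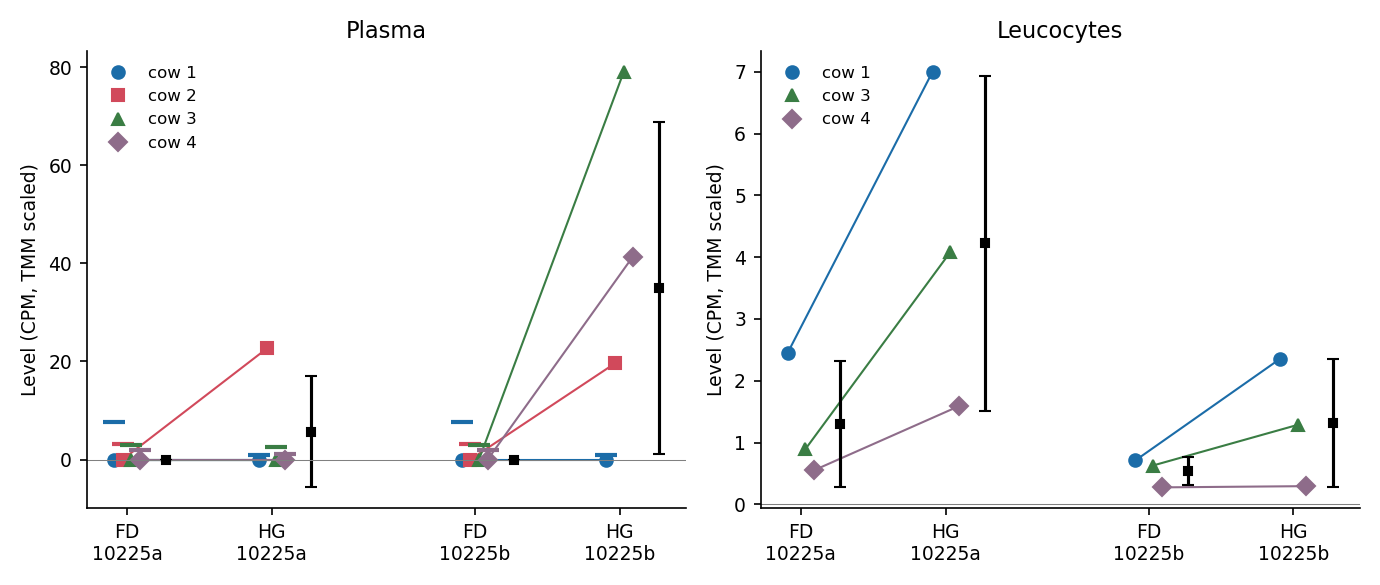
Levels of the 2 miRNAs in CPM on each diet, in plasma (left) and leucocytes (right), which have separate y scales and separate scaling. Coloured lines join the 2 samples of a cow, short dashes in plasma mark what 3 counts would be in libraries at 0, and black squares with bars are means with SD. In leucocytes miR-10225a reached 7.0 CPM, and in plasma miR-10225b reached 79.1 CPM on HG and had no read on FD.

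In leucocytes the mean level of miR-10225a was 4.22 ± 2.71 CPM on HG and 1.30 ± 1.02 CPM on FD (SD, n = 3 each), and that of miR-10225b was 1.31 ± 1.03 and 0.539 ± 0.232 CPM. For each miRNA the ranges of mean ± SD overlapped between the diets. In plasma the order was HG before FD for both, and for miR-10225a it rested on cow 2, without which both diets were at 0. Plasma and leucocytes were not put in 1 order, because their CPM were scaled separately.

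The pair was also set side by side in plasma and leucocytes with a joint scaling of all 14 libraries. This is a description as well, since miR-10225a was picked for leucocytes and miR-10225b for plasma. The fitted log2 fold change of plasma over leucocytes was 1.32 (SE 2.03) for miR-10225b, smaller than its error. For miR-10225a no fold is given here, because plasma of cows 1, 3 and 4 held no read and, on FD, its floors were above the leucocyte levels. Its plasma reads were in cow 2, whose leucocytes were not sequenced.

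The depth of each plasma library sets what it could have shown. The numbers below apply a leucocyte level to the size of a plasma library. They join 2 separately scaled tables and are a rough guide to depth only. At the level of the same cow's leucocytes on the same diet, the plasma FD libraries would have held 0.951, 0.895 and 0.856 counts of miR-10225a in cows 1, 3 and 4. A plasma level below that of leucocytes was thus not detectable on FD, while a level above the floors would have been. On HG the corresponding numbers were 20.7, 4.84 and 4.27, and 0 were found in each. For miR-10225b on HG, cow 1 would have held 6.99 counts and had 0. Cows 3 and 4 would have held 1.53 and 0.794 counts and had 94 and 111. On HG, plasma of cows 3 and 4 held fewer counts of miR-10225a and more of miR-10225b than the leucocyte levels would give. Cow 1 had 0 of both, fewer than those levels would give for either. Since miR-10225a was picked for leucocytes and miR-10225b for plasma, this contrast of the 2 names follows in part from the selection. It was not tested.

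**Figure D4:**
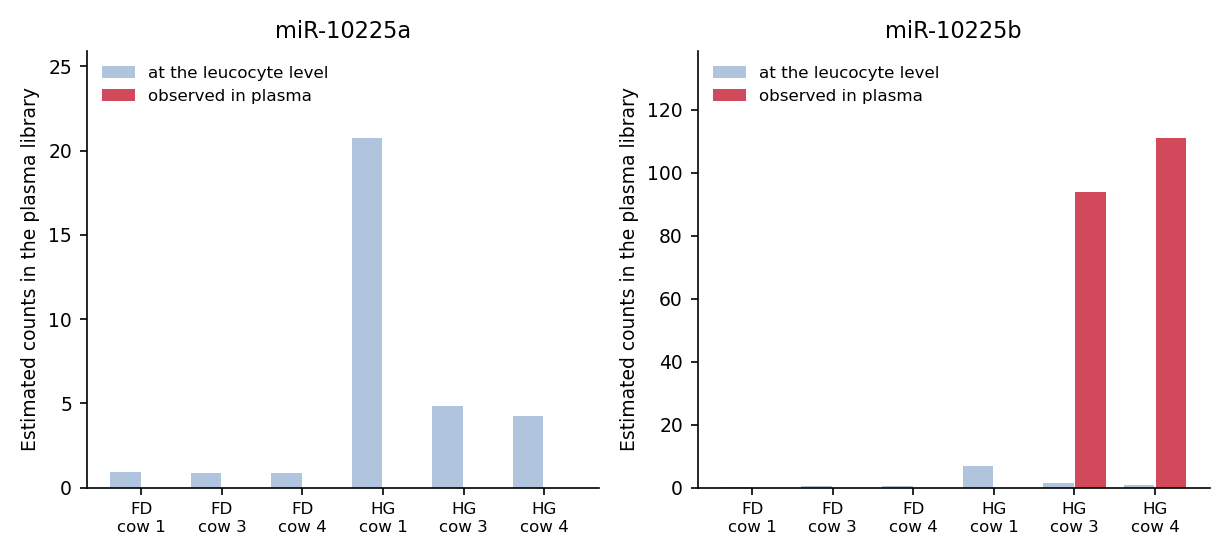
Estimated counts of each miRNA in the plasma libraries of cows 1, 3 and 4 (red) beside the counts these libraries would have held at the level of the same cow's leucocytes (light blue). For miR-10225a all 6 libraries were at 0, against up to 20.7, and for miR-10225b cows 3 and 4 on HG had 94 and 111, against 1.53 and 0.794. The light blue bars join separately scaled levels and are a rough guide only.

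The number of distinct read sequences behind a name shows how varied its reads were. In plasma on HG, every read of miR-10225b was of 1 sequence in each of cows 2, 3 and 4, and the 40 reads of miR-10225a were of 2 sequences. Names with read counts within 2-fold in the same library had medians of 4, 7 and 3 sequences in cows 2, 3 and 4. As few as 1 was found in 10.3%, 6.45% and 18% of them. The files used here give no molecular identifiers, so copies made by amplification and separate molecules cannot be told apart.

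In leucocytes the reads were more varied. In cows 1, 3 and 4, miR-10225a had 7, 4 and 4 distinct sequences on FD and 10, 5 and 3 on HG, under the median of names with like counts except in cow 4 on FD. The distinct sequences of miR-10225b were 4, 2 and 2 on FD, then 9, 3 and 2 on HG. Cow 1 on HG, with the most reads of both, had the most sequences of both. There the medians of names with like counts were 16 and 9.

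**Figure D5:**
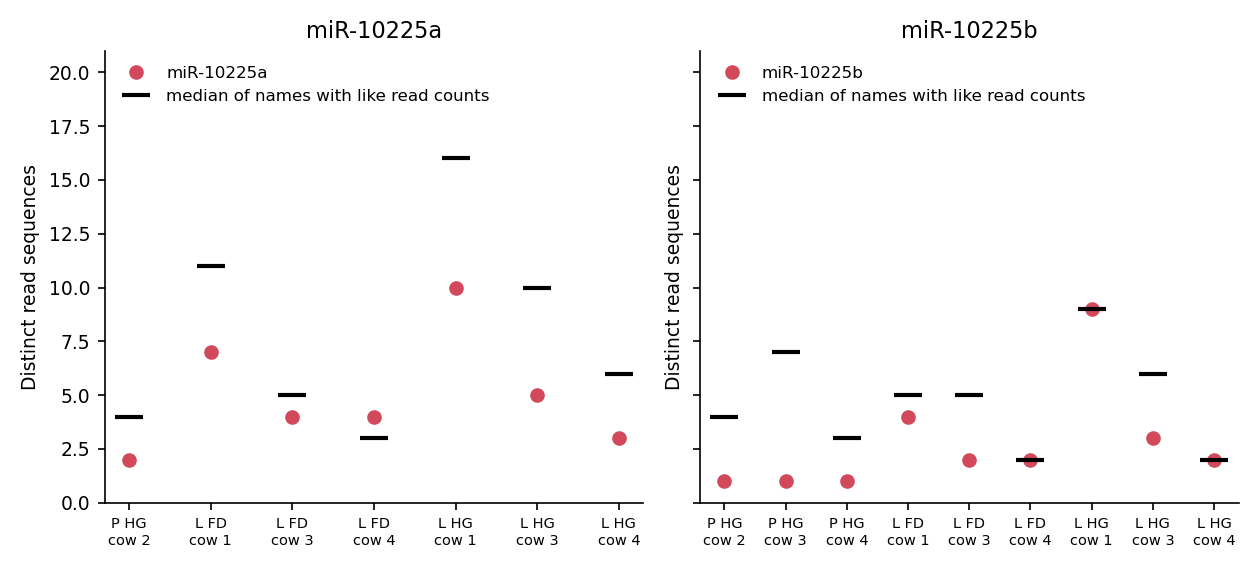
Distinct read sequences of each miRNA in each library with reads (red points), beside the median of names whose read count in that library was within 2-fold (black dashes). P is plasma and L leucocytes. In plasma miR-10225b had 1 sequence in each of 3 libraries, against medians of 3 to 7.

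Over the 6 leucocyte libraries, the pattern of each miRNA was compared with that of 673 others by Pearson's r of log2(CPM + 1). The pair itself gave r = 0.92, which was rank 6 for miR-10225a and rank 3 for miR-10225b. The 5 names most like miR-10225a were hsa-miR-628-3p, hsa-miR-93-5p, bta-miR-151-5p, bta-miR-2410 and bta-miR-6533, with r of 0.92 to 0.94. For miR-10225b they were bta-miR-192, bta-miR-2285at, miR-10225a, bta-miR-660 and bta-miR-186, with r of 0.91 to 0.96. The points share cows and libraries, and the fitted diet changes of the names other than the pair ran from 0.06 for bta-miR-192 to 0.74 for bta-miR-2410 and 1.11 for bta-miR-6533 on the log2 scale. In plasma, reads in 1 and 3 of 8 libraries were too few for such a comparison.

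Names with neighbouring numbers were entered in the miRNA registry close together, and 21 further names from bta-miR-10100 to bta-miR-10299 had reads. All 21 were found in leucocytes and 10 in plasma. In leucocytes 15 were tested, of which 0 passed an edgeR adjusted p of 0.05, 7 had a positive and 8 a negative log2 fold change of HG over FD, and the median was -0.12 beside -0.01 for all names. In plasma 8 were tested, of which 0 passed, 5 were positive and 3 negative, with a median of 3.48 beside 0.25. This median rests largely on fits against libraries at 0. The positive bta-miR-10164-3p, bta-miR-10180-3p and bta-miR-10182-5p had reads in 1 plasma library each, with 4.09 to 5.34 (SE 2.10 to 2.31). Between sample types 4 of 16 passed, 1 higher and 3 lower in plasma, beside 383 of all 800 names (47.9%), with 27.2% lower in plasma. That fit took the FD and HG libraries of a cow as separate samples of a sample type. The name with the most reads, bta-miR-10174-3p, had 606317 over all libraries and log2 fold changes with diet of -0.18 (SE 0.12) in leucocytes and -0.50 (SE 0.45) in plasma. Next came bta-miR-10172-3p with 11601 reads and 0.15 (SE 0.16) in leucocytes.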

How the data were processed

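Small RNA of bovine plasma and leucocytes was analysed from 14 deposited library files. The authors demultiplexed reads with bcl2fastq 2.20, trimmed them with Skewer and assigned them with sRNAbench (Bowtie, UMD3.1, miRBase) to bovine and human names. The deposited read counts give a read in full to every name it matches, and the number of distinct sequences is a count of the same kind. The deposited estimated counts divide such a read among its names. The deposited RPM values served only to recover the reads assigned and analysed in each library. The authors' tables of scaled values were not used here.

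Levels and tests used the estimated counts, rounded upwards at the midpoint, for names with at least 10 in total. edgeR 4.0.16 (R 4.3.3, quasi-likelihood test, robust, TMM) was fitted with cow plus diet in each sample type, and with cow, diet and sample type over all 14 libraries, over all names, with Benjamini-Hochberg adjustment at 0.05. Standard errors are the log2 fold change divided by the square root of F. The scripts were tested on simulated data. DESeq2 1.42.0 was an alternative, with other scalings, filters, undivided read counts, no cow term and each cow left out. Levels and intervals were computed in Python 3.11.15 with scipy 1.17.1.

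Samples were grouped by tissue and diet from the labels. Leucocyte samples were paired by the cow letter of their titles. Plasma samples were paired by the order of their labels, checked against the authors' numbering of cows, where 504 of 504 values equal the read counts. Deviations from the diet means correlated at 0.44 to 0.65 for the same cow in leucocytes (-0.60 to 0.31 for different cows), and at -0.20 to 0.14 in plasma (-0.25 to 0.32). The p-values measure the spread between these samples of 3 or 4 animals. None is printed for the pair, but counts of names past a threshold are over all names, the pair included. The miRNAs, the marker lists and the rule for names were chosen with earlier results of these data known. Named were the pair, names within 10 kb, the names with the most reads in the same range of numbers, and the 5 most similar in pattern. Marker lists covered erythroid, leucocyte, liver and muscle miRNAs.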

Additional observations from a re-analysis of the deposited data

Results flagged for a closer look

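In groups of 4, a library was singled out where its gap to the nearest other exceeded Dixon's 95% critical value, which chance gives in about 1 of 20 groups. Of 14 sets of values, 3 met this. In plasma on HG, miR-10225a had 40 reads (22.7 CPM) in cow 2 and 0 in the other 3 cows, which gave the pair of results for reads and level. In plasma on FD, the muscle markers made up 0.105% of counts in cow 1, against 0.0365% in the next library, and that library had the fewest reads of all.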

How the results depend on the processing

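The number of names past the threshold in leucocytes was 15 and varied with the processing. It was 25 with DESeq2, 9 with DESeq2's size factors, 6 with the stricter filter of at least 10 reads in 3 libraries, and 5 where identical names entered a single time. With no replicate block (no cow term) it was 0, with 45 at an unadjusted p under 0.05. With 1 cow left out it ranged from 0 (without cow 3, with 24 unadjusted) to 102 (without cow 4). The log2 fold changes there kept their sign in 13 of 13 alternatives. They ran from 1.502 to 1.93 for miR-10225a and from 0.67 to 1.54 for miR-10225b. All alternatives refit the libraries that served for the selection, or part of them, so a kept sign is no support. The 0.67, without cow 1, had an SE of 0.84. In plasma the 0 calls became 12 with DESeq2, which also turned the sign of miR-10225a to -0.11, a value that rests on 1 library. Between sample types, the FD libraries alone gave 151 calls in place of 383, and the fit without the cow term gave 411. With counts summed over both diets for each cow and sample type, 279 names were called, 77 higher and 202 lower in plasma. The fitted log2 fold change of miR-10225a, described without a test, was -9.18 and became -6.97 with the FD libraries alone and -1.90 without the cow term. That of miR-10225b turned to -6.00 with the FD libraries alone. These values were fitted against libraries at 0 and are no bounds. The cause of these moves was not tested. Leaving out a cow left miR-10225a between -10.08 and -8.02. Without the block, the plasma count stayed at 0. Plasma depth limits what can be said of absence there. On FD, 3 counts stood for more than the leucocyte levels of the same cows, though not for miR-10225a on HG.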
